A study of Drosophila melanogaster with 10 samples.

Results

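The eye pigment genes of Drosophila were followed here as the 10 genes white (w), scarlet (st), brown (bw), vermilion (v), cinnabar (cn), Henna (Hn), Punch (Pu), rosy (ry), prune (pn) and sepia (se). A gene was taken as measured where the platform annotation assigned at least 1 probe set to it and to no other gene, through the Entrez identifier, and no probe set was dropped for a dim signal. By this rule 7 of the 10 genes were found, on 8 probe sets, among the 10845 genes of the arrays. The genes w, v and Hn had no probe set by this rule and were not analysed here, although RefSeq lists a probe identifier of the array among the synonyms of v, which the rule does not use. The rule itself uses no measured value, but the genes were chosen with earlier results of these data known.

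The red-brown eye of the fly carries 2 classes of pigment, brown ommochromes and red drosopterins, which are stored in granules of the pigment cells. Ommochromes are built from tryptophan by the enzymes that v and cn encode, and drosopterins are pteridines built from GTP, with Pu at the entry of the pathway. The precursors are loaded into the granules by ABC transporters made of paired subunits, w with st for ommochrome precursors and w with bw for pteridine precursors. The classical eye colour mutants of the species are mutants of these genes.

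Transcripts were measured in heads of nonvirgin females aged 3 to 5 days, with 100 to 200 heads per sample, on 10 one-colour oligonucleotide arrays. There were 2 arrays of the parental strain Z30, 1 array for each of 6 lines with whole chromosomes exchanged (ZZM, ZMZ, ZMM, MZZ, MZM and MMZ), and 2 arrays of the parental strain Fr. A line's letters name, in order, the source of its X (first), second and the third chromosome, where Z stands for Z30 and M for Fr. For each of these 3 chromosomes 5 arrays carried the Z30 copy and 5 the Fr copy. The labels name neither the source of chromosome 4 and of the mitochondria nor the eye colour or any pigment mutation of a strain. They also do not say whether the arrays of a parent were separate cultures, so the p-values between the parents may reflect technical spread only. The p-values for a chromosome rest also on differences between lines, each with 1 array, that the 3 origins together do not explain.

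The values are signals on a linear intensity scale as the authors scaled them, with a 2% trimmed mean of 500.1 on every array, and their precision is limited by the number of arrays. Arrays Z30 1 and Fr 1 stood apart from the other 8. Their hybridisation controls, RNAs added in the laboratory, had a geometric mean signal of 538 on Z30 1 and 651 on Fr 1, against 1500 to 2179 elsewhere. The MZM array had a median rank correlation of 0.905 with the others, below the 0.929 to 0.945 of the other 7 of these 8 arrays. Values without these arrays are given beside the main results of st, bw, se, ry and pn.

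Probe sets of eye cell genes gave signals above the floor on every array. The floor is a signal of 38.9, the pooled 20th percentile, and is not a detection call. Of 12 listed photoreceptor genes 6 had a probe set, and all 6 were above the floor on every array. Their summed signal was 65322 and 90766 in Z30, 95669 to 127377 in the lines, and 64133 and 90698 in Fr. Of 2 listed genes of pigment and cone cells, the retinol dehydrogenase gene Pdh alone had a probe set, with a signal of 15325 and 19678 in Z30, 17987 to 21086 in the lines, and 12705 and 14726 in Fr. Both parents' first arrays were thus lowest in the photoreceptor sum, and the part of this in the values below was not tested. In whole heads, fewer cells of a type and less RNA per cell cannot be told apart.

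The transporter subunit st, on the left arm of the third chromosome (3L; probe set 153393_at), gave signals of 521.8 and 244.8 in Z30 and of 423.9 and 317.4 in Fr. The Fr arrays lay between those of Z30, and the means were 383 ± 196 in Z30 and 371 ± 75.3 in Fr (SD, n = 2 each). The limma estimate of the parental difference, Z30 minus Fr, was -0.037 on the log2 scale, with a 95% confidence interval from -1.17 to 1.09.

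Among the lines, st was low where the X chromosome came from Z30. Its signal was 203.5 in ZMM, 204.5 in ZMZ and 217.5 in ZZM, against 387.5 in MMZ, 429.3 in MZM and 317.3 in MZZ. The 3 lines with the Z30 X averaged 208.5 ± 7.81 and the 3 with the Fr X averaged 378 ± 56.6 (SD), and the ranges did not overlap. The second Z30 array, at 244.8, and the second Fr array, at 317.4, fell on the same sides. Over these 8 arrays st averaged 218 ± 19.2 with the Z30 X and 363 ± 55.3 with the Fr X (SD, n = 4 each), again without overlap. The first Z30 array, at 521.8, was the highest of all 10 and broke this order. The gene st itself lies on the third chromosome, not on the X.

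Over all 10 arrays the X chromosome from Z30 gave a log2 difference in st of -0.60 (SE 0.30, 95% interval -1.26 to 0.055) in the additive model of 3 chromosome origins. That is a signal 0.659 times the one with the Fr X. The difference did not pass the test across all probe sets (limma, Benjamini-Hochberg adjusted p = 0.9993). It was -0.73 (SE 0.22) over the 8 arrays without Z30 1 and Fr 1, and -0.63 (SE 0.22) without MZM as well, with adjusted p = 0.997 and 0.9998. In the 6 lines alone it was -0.95 (SE 0.31, adjusted p = 0.557). The chromosome that carries st, the third, gave 0.14 (SE 0.30), and the means by its origin were 335 ± 126 from Z30 and 318 ± 108 from Fr (SD, n = 5 each).

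**Figure D1:**
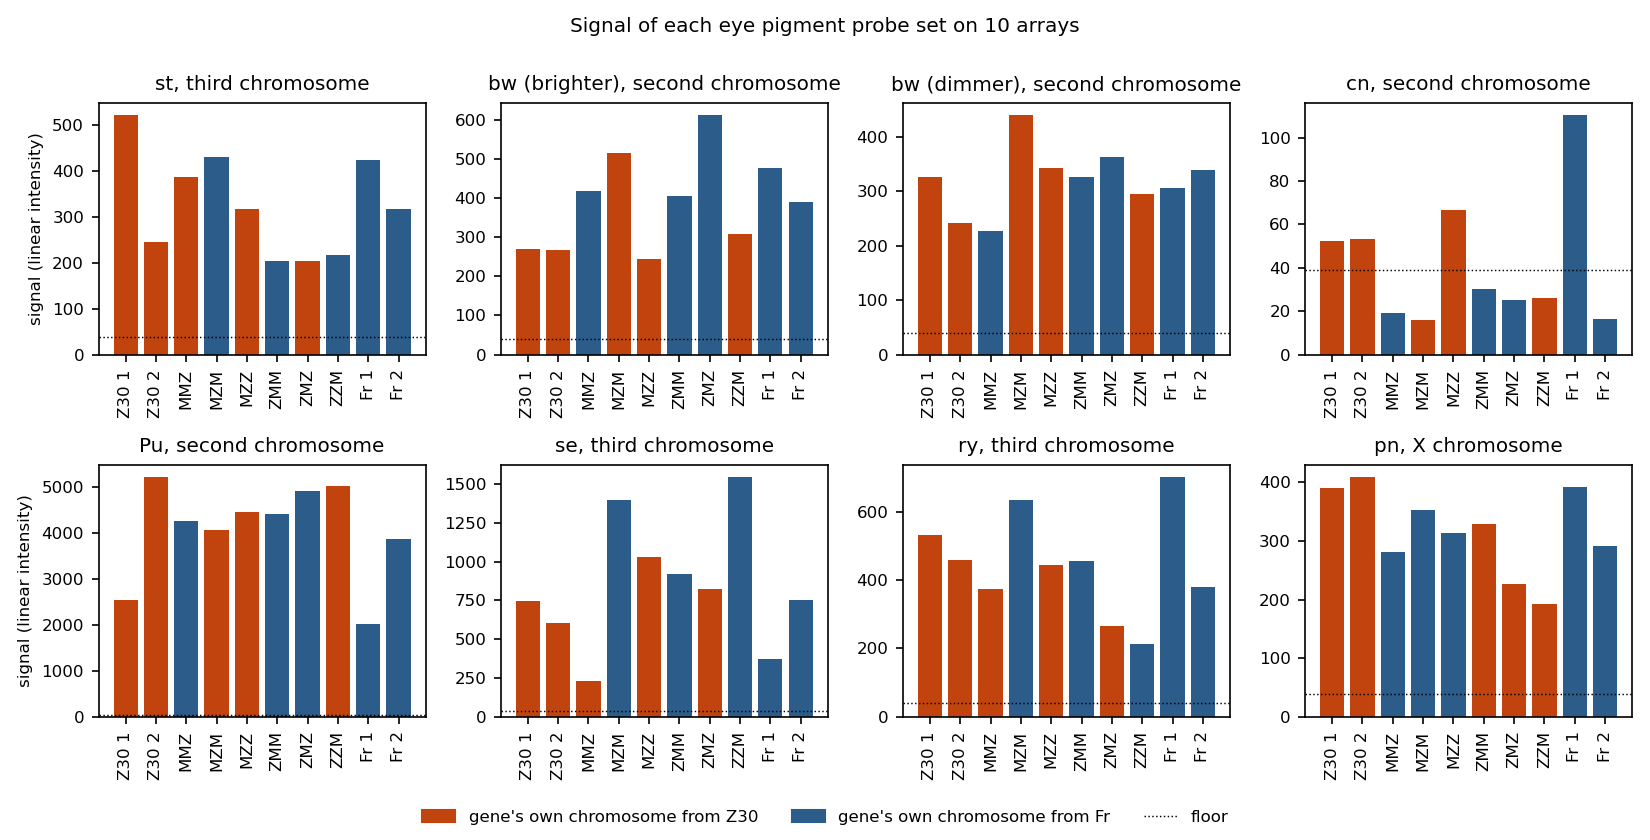
Signal (linear intensity) of the 8 probe sets of eye pigment genes on each of the 10 arrays, 1 panel per probe set with its own axis from 0. Bars are coloured by the origin of the chromosome that carries the gene, and the dotted line is the floor of 38.9. The brighter bw probe set is low on both Z30 arrays, Pu is low on Z30 1 and Fr 1, and cn lies under the floor on 6 arrays.

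The other transporter subunit gene, bw, lies on the right arm of the second chromosome (2R) and had 2 probe sets. The brighter one (142279_at) gave 269.7 and 266.0 in Z30 and 476.4 and 390.1 in Fr. Both Z30 arrays were below both Fr arrays, and the means were 268 ± 2.62 in Z30 and 433 ± 61.0 in Fr (SD, n = 2 each). The log2 difference was -0.69 (95% interval -1.58 to 0.21), a ratio of 0.621, and it held within each pair of arrays, at -0.82 for the first arrays of the parents and -0.55 for the second. It did not pass the test (limma adjusted p = 0.9998). With a term for the array pair the adjusted p was 0.221, the lowest that any eye pigment gene reached in any of the 79 fits made.

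By the origin of its own chromosome the brighter bw probe set showed a similar order with 1 exception. With the second chromosome from Z30 it gave 513.9 in MZM, 244.9 in MZZ and 306.8 in ZZM, against 418.8 in MMZ, 406.0 in ZMM and 612.5 in ZMZ with that from Fr. The MZM array alone put the ranges into overlap, since the other 4 arrays with a Z30 second chromosome reached 306.8 at most and the lowest with an Fr one was 390.1. The means over 10 arrays were 320 ± 111 from Z30 and 461 ± 90.9 from Fr (SD, n = 5 each). The log2 difference was -0.52 (SE 0.27, 95% interval -1.11 to 0.066), and -0.85 (SE 0.24) without MZM. Neither passed the test, with limma adjusted p = 0.9999 and 0.618. The difference was -0.50 without Z30 1 and Fr 1, -0.80 without MZM as well, and -0.23 without ZMZ alone, and none of these passed.

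The dimmer bw probe set (151510_s_at) did not show this order. It gave 326.9 and 242.5 in Z30 and 306.1 and 339.3 in Fr, which overlap, with means of 285 ± 59.7 in Z30 and 323 ± 23.5 in Fr (SD, n = 2 each). Its highest array was MZM at 440.4 and its lowest MMZ at 227.1. The difference for the second chromosome was 0.12 on the log2 scale (95% interval -0.42 to 0.65), opposite in sign to that of the brighter probe set. The parental difference was -0.19 and changed sign between the array pairs, at 0.095 and -0.48. The probe sequences were not used here, so which transcripts of bw each probe set reads was not analysed.

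By the rule used, the ommochrome enzymes were represented by cn alone, the gene of kynurenine 3-monooxygenase, on 2R (143103_at). It was above the floor on 4 of 10 arrays, with 52.5 and 53.4 in Z30, 66.9 in MZZ and 110.6 on Fr 1. The second Fr array gave 16.5 and the other 5 lines 16 to 30.1, all under the floor. The probe set did not reach the mean signal of 122 that the tests required. Since Fr 2 lay under the floor, both the size and the sign of a parental difference would depend on the floor, and none is given. No level of cn can be read from the arrays under the floor.

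At the entry of the pteridine pathway, Pu encodes GTP cyclohydrolase I and lies on 2R (154812_at). Its signal was 2540.1 and 5219.3 in Z30, 4055.1 to 5024.9 in the lines, and 2013.1 and 3866.8 in Fr. The first arrays of both parents were the lowest of the 10, averaging 2277 ± 373, against 4523 ± 482 on the other 8 (SD). This placing was shared by 10.1% of all 8379 probe sets tested. The parental log2 difference was 0.38 (95% interval -0.70 to 1.46), at 0.34 within the first arrays and 0.43 within the second, while the 2 arrays of one parent differed by 1.04 in Z30 and 0.94 in Fr. The second chromosome from Z30 gave 0.085 (SE 0.29), with means of 4257 ± 1065 from Z30 and 3890 ± 1114 from Fr (SD, n = 5 each).

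Among the 6 eye pigment genes tested se varied most between arrays. It lies on 3L (148411_at) and encodes a glutathione transferase of the omega class that acts as PDA synthase, which makes a direct precursor of the drosopterins. Its signal was 745.7 and 604.4 in Z30 and 373.6 and 753.9 in Fr, and the parents overlapped. In the lines it was 228.6 in MMZ, 1396.0 in MZM, 1030.7 in MZZ, 918.4 in ZMM, 822.2 in ZMZ and 1547.3 in ZZM. The highest signal was 6.77 times the lowest, a spread that placed se at percentile 91.2 of the probe sets tested. The other 6 probe sets tested spread between 1.94 and 3.31 times, beside a median of 2.55 over all of them.

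The lines separated by their second chromosome, which does not carry se. The 3 with a Z30 second chromosome averaged 1325 ± 266 and the 3 with an Fr one averaged 656 ± 374 (SD), and the ranges did not overlap. Over the 10 arrays the ranges did overlap, with 1065 ± 405 from Z30 and 619 ± 301 from Fr (SD, n = 5 each). The log2 difference for the second chromosome was 0.94 (SE 0.35, 95% interval 0.16 to 1.72), a ratio of 1.92. The third chromosome, which carries se, gave a difference of the opposite sign, -0.82 (SE 0.35, 95% interval -1.60 to -0.039), a ratio of 0.567. The means by its origin were 686 ± 299 from Z30 and 998 ± 479 from Fr (SD, n = 5 each).

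Neither difference in se passed the test over all probe sets, with limma adjusted p = 0.9999 for the second chromosome and 0.998 for the third. Unadjusted, the limma p was 0.0224 and 0.0412, and these were the only values under 0.05 among the eye pigment genes in the 4 comparisons. Over all 8379 probe sets 342 reached that level for the second chromosome and 376 for the third. Without MZM the differences were 0.80 and -0.71, and without Z30 1 and Fr 1 they were 0.84 and -0.92. In the 6 lines alone the second chromosome gave 1.46 (SE 0.43) and the third -0.30 (SE 0.43). Each of these is adjusted for the other origins. The plain line means for the third were 694 ± 416 from Z30 and 1287 ± 328 from Fr (SD, n = 3 each). The parental log2 difference was 0.34 (95% interval -0.66 to 1.33), and it changed sign between the array pairs, at 0.997 for the first arrays and -0.32 for the second.

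**Figure D2:**
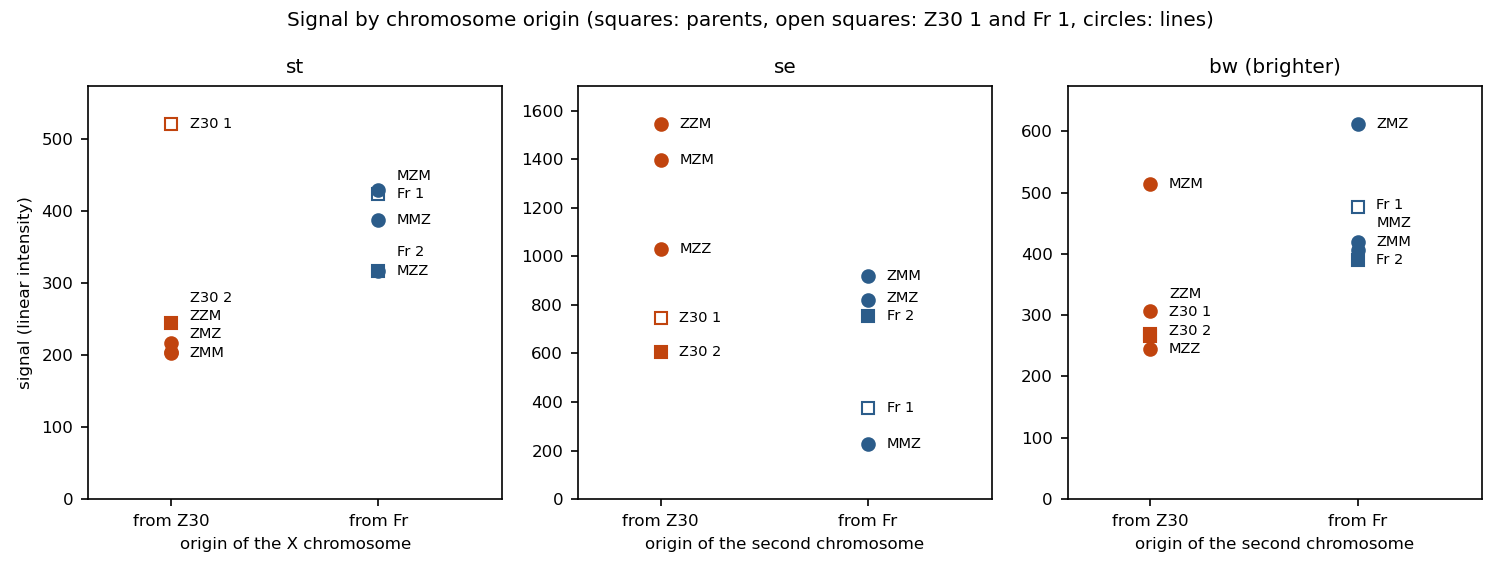
Signal (linear intensity, axes from 0) of st by the origin of the X chromosome and of se and the brighter bw probe set by the origin of the second chromosome, 1 point per array with its name. Squares are parents, open squares are Z30 1 and Fr 1, and circles are lines. For st the first Z30 array, at 521.8, lies above all arrays with an Fr X, and for bw MZM, at 513.9, lies above the other 4 arrays with a Z30 second chromosome.

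The gene ry encodes xanthine dehydrogenase, which acts on purines and pteridines, and lies on 3R (152200_at). It gave 533.6 and 460.1 in Z30 and 702.5 and 379.8 in Fr, and the Z30 arrays lay between those of Fr. The lines gave 373.2 in MMZ, 633.5 in MZM, 445.2 in MZZ, 455.2 in ZMM, 264.7 in ZMZ and 212.4 in ZZM. By the origin of the third chromosome the means were 415 ± 102 from Z30 and 477 ± 197 from Fr (SD, n = 5 each), with a log2 difference of -0.061 (SE 0.33). The X from Z30 gave -0.45 (SE 0.33), and -1.04 (SE 0.39) in the 6 lines alone. It was -0.44 over the 8 arrays without Z30 1 and Fr 1, -0.25 without MZM as well, and -0.11 over the 9 arrays without ZZM, so that 1 array set most of its size. None of these passed the test.

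The X-linked gene pn encodes a phosphodiesterase of the DHH family whose loss lowers drosopterins (152633_at). It gave 390.5 and 409.3 in Z30 and 392.2 and 291.7 in Fr, with means of 399.9 ± 13.3 in Z30 and 342 ± 71.1 in Fr (SD, n = 2 each), and the ranges overlapped. In the lines with the Z30 X it gave 329.6 in ZMM, 227.1 in ZMZ and 191.8 in ZZM, against 281.5 in MMZ, 353.0 in MZM and 313.1 in MZZ with the Fr X. The parental log2 difference was 0.24 (SE 0.38), while that for the X was -0.16 (SE 0.28, 95% interval -0.78 to 0.45). The parental value was 0.45 without Fr 1 and 0.028 without Fr 2, so that 1 Fr array decided its size. That for the X was -0.16 without Z30 1 and Fr 1, -0.070 without MZM as well, 0.084 without ZZM and -0.59 (SE 0.35) in the 6 lines alone. None of these passed the test.

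Counted together, no eye pigment gene passed the test in any comparison. Between the parents 0 of 7 probe sets were called by limma at an adjusted p of 0.05, where 0.0358% of all 8379 were, and the median log2 difference was -0.037 beside 0.017 over all. For the X chromosome 0 of 7 were called, against 0.0597% of all, with a median of -0.054 beside 0.0018. The second chromosome likewise gave 0 of 7, against 0.0358%, with a median of 0.12 beside -0.016, and the third gave 0 of 7, against 0.0955%, with a median of -0.061 beside 0.040. At an unadjusted p under 0.05 the counts were 0, 0, 1 and 1 of 7, while 351, 207, 342 and 376 of the 8379 reached it. Since calls were this rare over the whole array, a count of 0 of 7 does not set these genes apart. With 2 residual degrees of freedom the fit of the parents also called no change in simulated data, so its count of 0 says little. The standard errors of the 7 probe sets were 0.38 to 0.48 between the parents and 0.24 to 0.35 for a chromosome.

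Arrays Z30 1 and Fr 1 hold 1 array of each parent, and the fits were repeated with a term for that pair, which left 1 residual degree of freedom between the parents. The estimates stayed as they were and the share of all probe sets called rose to 6.58% between the parents, 0.107% for the X, 0.155% for the second and 0.406% for the third chromosome. Again 0 of 7 eye pigment probe sets were called in each comparison. The lowest adjusted p among them was 0.221 between the parents (the brighter bw probe set), 0.879 for the X (st), 0.481 for the second (se) and 0.566 for the third (se).

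**Figure D3:**
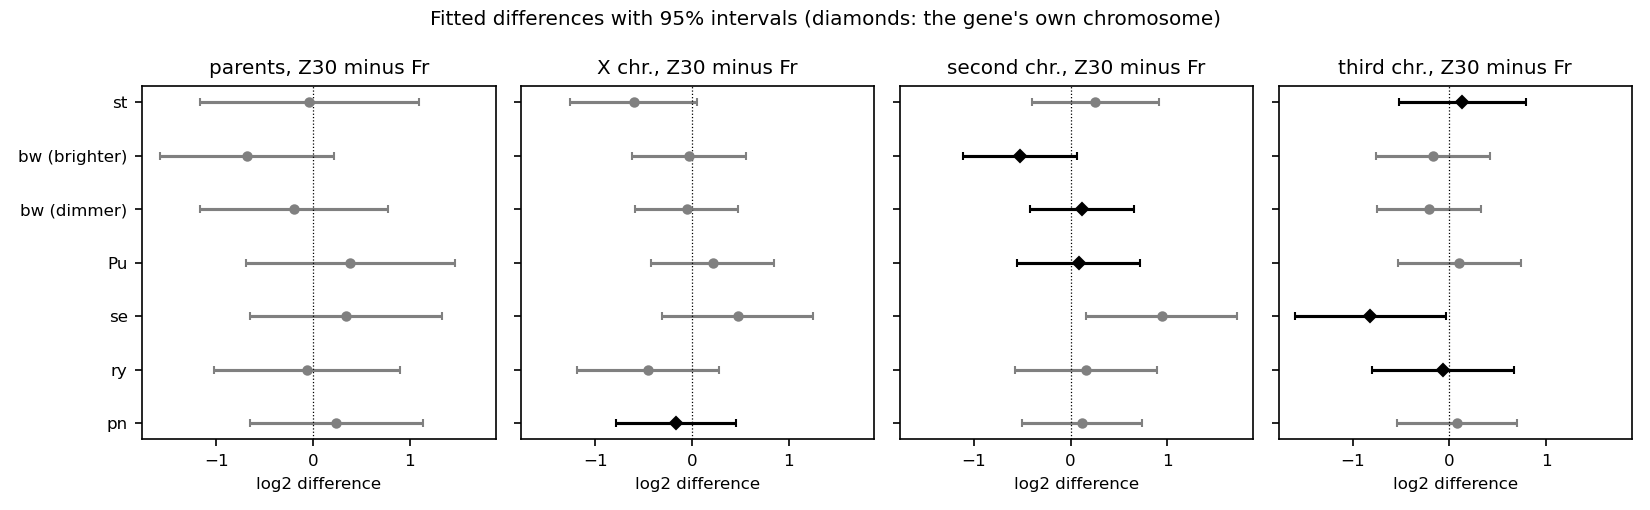
Log2 differences of 7 eye pigment probe sets with 95% confidence intervals from limma, Z30 minus Fr, between the parents (4 arrays) and for the origin of the X, second and the third chromosome (10 arrays). Diamonds mark the chromosome that carries the gene. The intervals of se exclude 0 for the second and the third chromosome before adjustment over all probe sets, and every other interval includes 0.

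Ranges that do not overlap were compared with their share over all probe sets. Between the parents, with 2 arrays each, 1 of 7 probe sets (the brighter one of bw) did not overlap, and 28.5% of all did not. By the origin of a chromosome over the 10 arrays 0 of 7 were free of overlap for the X, the second or the third, against 0.943%, 1.11% and 1.58% of all. Over the 8 arrays without Z30 1 and Fr 1 only st did not overlap for the X, where 2.45% of all did not, and 0 of 7 for the second and the third, where 4.06% and 4.18% did not. In the 6 lines 1 of 7 did not overlap for the X (st) and 1 of 7 for the second chromosome (se), against 10.9% of all probe sets in both cases, and 0 of 7 for the third, against 14.7%.

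The parental difference was also set beside the sum of the 3 chromosome effects estimated from the 6 lines alone, a comparison chosen after the values were seen. For Pu the parents differed by 0.38 and the sum was 0.53 ± 0.49 (SE) on the log2 scale, and for the brighter bw probe set the values were -0.69 and -0.93 ± 1.06. For se the parents differed by 0.34, against a sum of 2.16 ± 1.05, and for ry by -0.060, against -2.10 ± 0.96. The sums of st and pn were both -1.26, with parental differences of -0.037 and 0.24. The 95% intervals of all 7 sums included both 0 and the parental difference, those of se (-0.33 to 4.66) and ry (-4.36 to 0.16) among them. The absolute gap between sum and parental difference had a median of 0.76 over all probe sets, and the gap (sum minus parental difference) was -2.04 for ry and 1.82 for se, at percentiles 88.8 and 85.4.

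**Figure D4:**
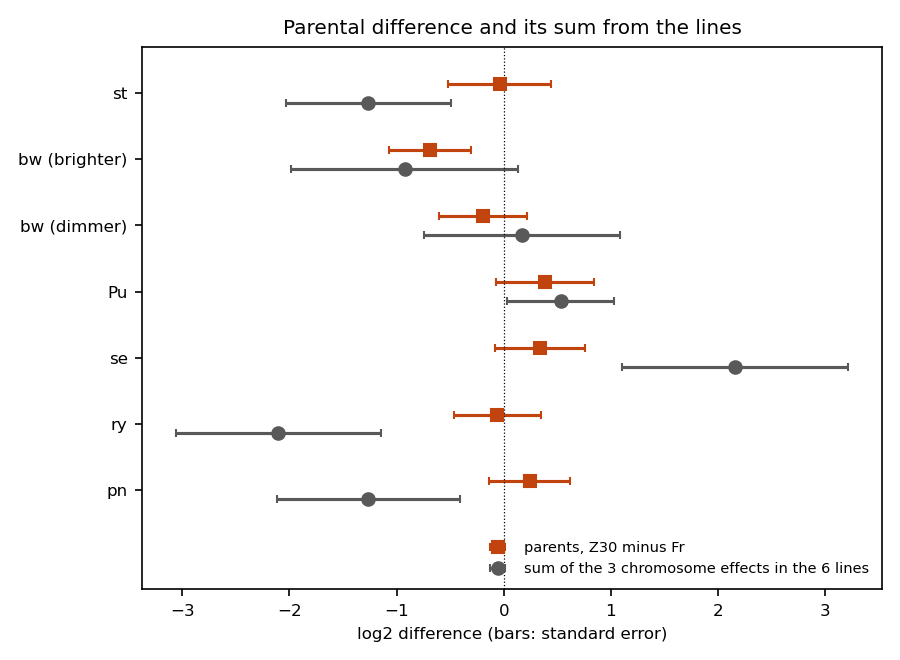
Parental log2 difference, Z30 minus Fr (squares, 4 arrays), beside the sum of the 3 chromosome effects estimated from the 6 lines (circles), for 7 eye pigment probe sets, with bars of 1 standard error. The sum lies near the parental difference for Pu and the brighter bw probe set and away from it for ry (-2.10 against -0.060) and se (2.16 against 0.34).

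Other genes listed with the same pathways gave no call either. The 3 further genes listed with the ommochrome pathway, KFase (kynurenine formamidase), cd (a haem peroxidase) and Kyat (kynurenine aminotransferase), were all tested. Kyat is not taken here as a step of pigment synthesis. The median log2 difference of the 3 genes was 0.020 between the parents, -0.016 for the X, 0.27 for the second chromosome and -0.42 for the third. All 3 estimates were positive for the second chromosome, as were 3997 of all 8379, and all 3 negative for the third, as were 3763 of all, and 0 of 3 were called in either case.

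Of 10 further genes of pteridine synthesis 9 were tested, 0 were called in any comparison, and their medians were 0.18, 0.086, 0.050 and -0.085 for the parents, the X, the second and the third chromosome. The granule group, whose proteins carry vesicles to the pigment granule, had 17 of its 20 listed genes tested and also gave 0 calls, with medians of 0.074, -0.062, 0.16 and -0.052. With the term for the array pair all of these counts were 0 as well. The lowest limma adjusted p was 0.284 for the pteridine genes, 0.291 for the granule group and 0.454 for the genes listed with the ommochrome pathway.

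The lists of genes that mark cells of the head were chosen with earlier results of these data known. Their calls are therefore no independent comparison for the eye pigment genes. Some of these marker genes did pass the test between the same arrays once the term for the array pair was included. Between the parents it called 2 of 6 photoreceptor genes tested (1 higher and 1 lower in Z30), 1 of 3 glial genes (nrv2, higher), 2 of 5 fat body genes (fit, higher, and Lsp2, lower), 0 of 2 muscle genes, 0 of 3 hemocyte genes, 0 of 1 neuron gene and 0 of 1 gene of pigment and cone cells. With the same term 6.58% of all 8379 probe sets were called between the parents. None of these lists held a call between the parents without that term, where 0.0358% of all probe sets were called. With the term but without limma's variance trend, nrv2 alone of these 5 called genes was called. The photoreceptor channel gene trpl fell in Z30, with 6223 ± 850 against 12535 ± 1235 in Fr (SD, n = 2 each; log2 difference -1.01, limma adjusted p = 4.8e-09 with the term). The photoreceptor scaffold gene inaD was higher in Z30, with 5861 ± 1438 against 3836 ± 1414 in Fr (log2 difference 0.64, limma adjusted p = 0.0128 with the term). The photoreceptor genes thus moved in both directions between the parents, and their part in the eye pigment values was not tested.

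Of the marker genes, Lsp2 was called for the third chromosome and nrv2, only with the term, for the second. The differences in se for these chromosomes did not pass the test. The fat body storage protein gene Lsp2 fell with the third chromosome from Z30 (log2 difference -4.28, limma adjusted p = 0.00639 without the term and 1.7e-04 with it), and nrv2 rose with the second chromosome from Z30 (1.63, limma adjusted p = 0.136 without the term and 0.0472 with it). Of all probe sets 0.0955% were called for the third chromosome without the term and 0.406% with it. For the second the shares were 0.0358% and 0.155%. The other marker genes tested were not called for any chromosome. For the chromosome with the Lsp2 call, 4 of 5 fat body genes tested had positive log2 differences and Lsp2 alone a negative one (median 0.10). For the chromosome with the nrv2 call, 2 of 3 glial genes tested were positive and 1 was negative (median 0.24). The part of Lsp2 and nrv2 in the se values was not tested. The summed signal of the 3 listed neuron genes with a probe set was 1108 and 1855 in Z30, 963 in MZM, 2394 to 3206 in the other lines, and 739 and 2501 in Fr. The MZM array, where the brighter bw probe set was high for its second chromosome, was thus low in this sum, though above Fr 1. On MZM only 1 of the 3 neuron genes was above the floor, and only 1 of the 3 was bright enough to be tested. In the photoreceptor sum MZM was instead the highest array, at 127377, and also in the granule group, at 17843. The part of these sums in the bw and se values was not tested.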

How the data were processed

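Head RNA of Drosophila melanogaster was measured on 10 arrays of 14010 probe sets. The deposited intensity values are linear, each array scaled by the authors to a 2% trimmed mean of 500.1. The software behind them is not given in the sources used here. Groups were taken from the labels. Signals under 38.9 were set to that floor, log2 was taken, 44 control probe sets were removed, and the 8379 probe sets with a mean log2 signal above the 40th percentile (a signal of 122) were tested. This left 7 of 8 eye pigment probe sets (cn was left out). Differences are Z30 minus Fr on this floored log2 scale, which understates changes near the floor. Tests used limma 3.58.1 in R 4.3.3 (lmFit, eBayes with a variance trend) and Benjamini-Hochberg adjustment over all probe sets at 0.05, and were tested on simulated data, where the fit of the chromosomes called most large changes and the fit of the parents called none. The simulated noise was independent between arrays, with a spread taken over all 10 and no shift shared by Z30 1 and Fr 1. The parents were fitted on 4 arrays (2 residual degrees of freedom, 1 with the term for the array pair) and the 3 chromosome origins together on 10 (6 residual degrees of freedom).

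Of 13966 probe sets 12443 had 1 gene, 327 several and 1196 none. Symbols and chromosome arms came from the Release 6 annotation of RefSeq, through Entrez identifiers. No sequence is shown, since none was used here. The members and lists were chosen with earlier results of these data known. All 10 genes and their probe sets are named, and a gene of another list is given with values only where limma called it with or without the term for the array pair. Lists of glia, fat body, muscle and hemocyte genes were read as well. Alternatives were other scalings (75th percentile, quantile), a pseudocount of 16, a lower floor, no dim filter, no variance trend, a replicate block, other sets of arrays and each array left out in turn.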

Additional observations from a re-analysis of the deposited data

Results flagged for a closer look

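Each of the 16 groups of 5 arrays that share the origin of a member's own chromosome was examined for an array far from the other 4, taking a gap above 0.71 of the group's range. Chance alone flags about 5% of such groups, and 2 were found. The brighter bw probe set had 513.9 on MZM, against 244.9 to 306.8 on the other 4 arrays with a second chromosome from Z30 (gap 0.77 of the range). The cn probe set had 110.6 on Fr 1, against 16.5 to 30.1 on the other 4 arrays with a second chromosome from Fr, all of them under the floor (gap 0.855 of the range).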

How the results depend on the processing

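No eye pigment gene was called in any of the 79 fits over 22 settings, and the lowest adjusted p was 0.221. Of the 28 log2 differences between Z30 and Fr of the 7 probe sets (parents and 3 chromosomes), 10 kept their sign under every alternative, among them both large differences of se (second chromosome 0.68 to 1.36 and the third -1.13 to -0.52 when arrays were left out in turn), that of st for the X (-0.84 to -0.50) and both of the brighter bw probe set named for the parents and the second chromosome (-0.83 to -0.54 and -0.85 to -0.23). The other 18 changed sign at least once, and the cause was not tested.

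With the numbers of the parental arrays as a replicate block, 551 probe sets were called between the parents, against 3 without it, and the counts for the X, second and the third chromosome were 9, 13 and 34, against 5, 3 and 8. The estimates of the members were the same and 0 of 7 were called. The differences between the first and the second array of Z30 and of Fr had r = 0.64 across 8379 probe sets, from only 2 pairs, and the labels do not say that the number marks a shared batch.

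When each array was left out in turn, 17 differences changed sign, and the lowest and highest values were as follows. Between the parents they were -0.14 and 0.90 for Pu, -0.41 and 0.021 for the dimmer bw probe set, -0.50 and 0.38 for ry, -0.17 and 0.85 for se, and -0.58 and 0.51 for st. For the X they were -0.25 and 0.21 for the brighter and -0.21 and 0.060 for the dimmer bw probe set, and -0.31 and 0.084 for pn. For the second chromosome they were -0.073 and 0.26 for Pu, -0.034 and 0.33 for the dimmer bw probe set, -0.065 and 0.37 for pn, and -0.014 and 0.51 for ry. For the third they were -0.055 and 0.28 for Pu, -0.39 and 0.074 for the brighter bw probe set, -0.26 and 0.21 for pn, -0.52 and 0.091 for ry, and -0.043 and 0.32 for st. The bound of -0.85 for the brighter bw probe set is that without MZM, and that of -0.84 for st is without MZZ.

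In the 6 lines alone the dimmer bw probe set turned to 0.050 for the X, the second chromosome turned to -0.31 for pn, -0.42 for ry and -0.096 for st, and the third to -0.36 for pn and -0.21 for st. These values are adjusted for the other 2 origins. Since no line has all 3 chromosomes from 1 parent, the origins are not independent there. Plain line means for the second chromosome from Z30 were higher. They were 286 against 279 for pn, 430 against 364 for ry and 321 against 265 for st. For the third they were 274 against 291 for pn and 303 against 283 for st, and for the X 328 against 337 for the dimmer bw probe set. Without Z30 1, Fr 1 and MZM, a setting added after the data were seen, the X turned to 0.30 for the brighter and 0.017 for the dimmer bw probe set, the second chromosome to -0.071 for the dimmer bw probe set and -0.023 for ry, and the third to 0.16 for the brighter bw probe set and 0.15 for ry. Quantile normalization turned pn for the third chromosome to -0.00066. Signals near the floor limit cn, and 1 array per line limits every line.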
